A study of Mus musculus with 2 samples.

Results

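The regions described here are the 237 autosomal 1 Mb bins of the mouse genome in which uH2A tags of Bmi1 wild-type cells were scarcest relative to those of Bmi1 null cells. They were selected on that ratio itself. Autosomes of the mm8 build were divided into bins of 1 Mb, tags were counted as 1 per position and strand, and 2368 of 2410 bins held 500 or more tags in each library. The ratio is the wild-type count over the null count, each divided by its library's total in the same counting, and the lowest 10% of the 2368 bins are called low bins. They are described beside the 1894 middle bins and the 237 bins of the highest 10%.

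The study immunoprecipitated uH2A with the E6C5 antibody from C57BL/6 mouse embryonic fibroblasts (MEFs) of 2 genotypes, Bmi1 wild-type and Bmi1 null. Both cell lines came from littermates, were immortalized with TBX2 and received no further treatment. There was 1 library per genotype, so a genotype cannot be told apart from its cell line, its chromosomes or its library, and no test between genotypes was made. The 6114925 wild-type tags fell on 4096561 combinations of position and strand, called distinct tags, and the 8020248 null tags on 5253063, so that a wild-type tag counts 1.28 times when scaled to the null total. Intervals are Clopper-Pearson intervals at 95% and cover counting error only.

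uH2A is histone H2A that carries a single ubiquitin. In mammals it is deposited mainly by Polycomb repressive complex 1, in which a RING-type E3 ligase works together with a PCGF partner such as Bmi1. The mark is known at silenced promoters of CpG-rich genes, where it often accompanies H3K27me3, the mark of Polycomb repressive complex 2, and it is also found at low density over wide stretches of chromatin outside genes.

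The low bins hold few promoters of the gene lists used here. These lists class the promoters into different kinds, and 8 sequences serve as examples. All are from RefSeq on GRCm38.p6, run from 250 bases before to 50 bases after the start site along the gene's strand, and carry each CG in capitals to show the CpG density, which overlaps between the kinds. The first 3 belong to genes with a listed peak at the promoter. Fibin encodes a secreted protein and its sequence lies at chr2:110362944-110363243 on the minus strand, Vcan encodes the matrix proteoglycan versican at chr13:89742463-89742762 on the minus strand, and Olfr131 encodes an olfactory receptor at chr17:38082927-38083226 on the minus strand.
Fibin: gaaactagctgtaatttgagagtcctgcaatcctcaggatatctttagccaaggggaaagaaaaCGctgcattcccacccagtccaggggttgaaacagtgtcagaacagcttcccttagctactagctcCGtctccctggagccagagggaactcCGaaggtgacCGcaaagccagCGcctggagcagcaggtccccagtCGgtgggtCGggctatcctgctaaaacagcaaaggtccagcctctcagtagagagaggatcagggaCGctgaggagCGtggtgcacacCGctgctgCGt
Vcan: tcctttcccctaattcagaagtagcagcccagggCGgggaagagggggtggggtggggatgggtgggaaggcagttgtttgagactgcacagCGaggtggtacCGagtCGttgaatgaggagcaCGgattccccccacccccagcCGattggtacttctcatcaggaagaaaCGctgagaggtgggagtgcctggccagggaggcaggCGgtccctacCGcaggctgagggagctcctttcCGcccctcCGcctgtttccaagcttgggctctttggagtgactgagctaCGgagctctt
Olfr131: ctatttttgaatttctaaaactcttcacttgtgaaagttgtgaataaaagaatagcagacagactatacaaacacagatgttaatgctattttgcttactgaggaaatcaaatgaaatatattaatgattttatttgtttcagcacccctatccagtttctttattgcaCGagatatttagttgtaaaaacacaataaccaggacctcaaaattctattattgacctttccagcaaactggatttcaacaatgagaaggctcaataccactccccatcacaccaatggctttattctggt
The next 2 are H3K27me3-only promoters of the supplied list. Trpm3 encodes a cation channel and its sequence lies at chr19:22138796-22139095 on the plus strand, and Fgf14 encodes an intracellular partner of sodium channels at chr14:124192497-124192796 on the minus strand.
Trpm3: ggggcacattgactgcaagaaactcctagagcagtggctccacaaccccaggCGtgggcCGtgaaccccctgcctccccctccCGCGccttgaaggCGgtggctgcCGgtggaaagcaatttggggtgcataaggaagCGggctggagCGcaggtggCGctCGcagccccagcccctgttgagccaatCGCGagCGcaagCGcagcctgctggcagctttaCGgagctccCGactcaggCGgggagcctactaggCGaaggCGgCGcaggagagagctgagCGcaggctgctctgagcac
Fgf14: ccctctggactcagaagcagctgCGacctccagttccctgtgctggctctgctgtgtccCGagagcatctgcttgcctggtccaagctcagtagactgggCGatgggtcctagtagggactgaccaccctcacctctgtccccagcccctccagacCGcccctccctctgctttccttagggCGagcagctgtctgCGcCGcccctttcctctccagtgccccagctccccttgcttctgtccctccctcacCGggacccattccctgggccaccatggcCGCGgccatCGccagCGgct
The last 3 are H3K4me3-only promoters. Hdac2 encodes a histone deacetylase at chr10:36974294-36974593 on the plus strand, App, picked after its values were seen, encodes the amyloid precursor protein at chr16:85173658-85173957 on the minus strand, and Gabrb2 encodes a subunit of the GABA-A receptor at chr11:42420190-42420489 on the plus strand.
Hdac2: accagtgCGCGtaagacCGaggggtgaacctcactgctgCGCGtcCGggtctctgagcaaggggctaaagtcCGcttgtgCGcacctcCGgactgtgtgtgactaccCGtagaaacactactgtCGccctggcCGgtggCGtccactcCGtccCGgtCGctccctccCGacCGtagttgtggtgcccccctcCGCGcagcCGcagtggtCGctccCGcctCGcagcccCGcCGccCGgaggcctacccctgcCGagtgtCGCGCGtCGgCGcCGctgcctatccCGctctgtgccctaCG
App: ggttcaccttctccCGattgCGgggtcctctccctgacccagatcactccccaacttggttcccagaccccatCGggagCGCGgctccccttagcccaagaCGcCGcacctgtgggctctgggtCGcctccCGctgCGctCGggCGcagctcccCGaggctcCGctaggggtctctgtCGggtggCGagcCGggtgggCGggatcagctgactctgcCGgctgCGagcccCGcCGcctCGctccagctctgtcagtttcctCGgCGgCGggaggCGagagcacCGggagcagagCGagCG
Gabrb2: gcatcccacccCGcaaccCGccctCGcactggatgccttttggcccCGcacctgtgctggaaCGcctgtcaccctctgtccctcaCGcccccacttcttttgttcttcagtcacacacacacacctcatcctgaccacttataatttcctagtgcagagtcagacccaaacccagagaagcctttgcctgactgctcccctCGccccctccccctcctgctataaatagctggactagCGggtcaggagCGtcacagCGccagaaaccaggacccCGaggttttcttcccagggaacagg
These 300 bases hold 36 CpGs at Hdac2, 30 at App, 21 at Trpm3, 12 each at Vcan and Fgf14, 11 each at Fibin and Gabrb2 and 1 at Olfr131. The median over all 27025 promoters of the sequence table was 7 CpGs. Of the 46 supplied promoters in low bins, 39 had a sequence, with a median of 21 CpGs, and all 46 come from a class that the authors had chosen as CpG-rich. In the other bins 77.9% of supplied promoters had a sequence, under the 80% needed here, so the base composition of the sets was not compared.

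By the rule, the ratio in low bins ran from 0.650 to 0.816, with a median of 0.793, beside 0.948 over all bins and 1.28 in the highest 10%. Over all bins the SD of the ratio was 0.153, and the median counting SD of a single bin was 0.0319, so that the bins spread 4.81 times as widely as counting alone gives at the median bin. A ratio of 0.9 or less was reached by 870 of 2368 bins, 36.7%, which includes all low bins by construction and says nothing more about them. The 3 bins just inside the threshold had ratios of 0.81546, 0.81569 and 0.81577 (chr11:42000001-43000000, chr11:15000001-16000000 and chr10:14000001-15000000). The 3 just outside had 0.81607, 0.81634 and 0.81663 (chr17:77000001-78000000, chr6:66000001-67000000 and chr1:145000001-146000000). The threshold thus falls in a continuous range and separates no distinct class.

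**Figure D1:**
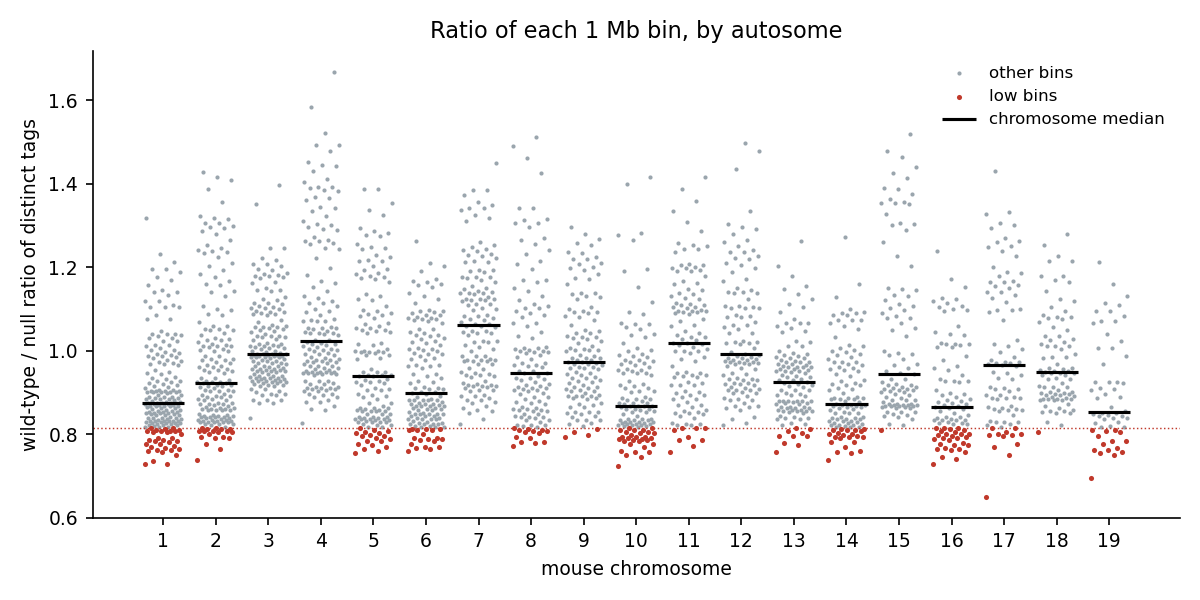
Wild-type over null ratio of distinct tags in each of 2368 bins of 1 Mb (points), by autosome; red points are the 237 low bins, black bars the chromosome medians and the dotted line the threshold. Low bins crowd on chromosomes 1, 10, 14, 16 and 19, whose medians lie lowest, and none lies on chromosomes 3, 4, 7 or 12.

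Low bins were not spread evenly over the autosomes. Chromosome 1 held 33 of them, chromosome 10 held 30, chromosome 16 held 29 and chromosome 14 held 22. These 4 chromosomes had 114 low bins, 48.1% of all, on 22.3% of the bins. As a share of its own bins, chromosome 16 stood first with 30.5%, followed by chromosome 19 with 25.9% (15 bins) and chromosome 10 with 23.6%. Chromosomes 2, 5 and 6 had 19 low bins each, chromosome 8 had 14, chromosome 17 had 12, chromosome 13 had 10, chromosome 11 had 9 and chromosome 9 had 4. Chromosomes 15 and 18 had 1 each. Chromosomes 3, 4, 7 and 12, with 548 bins together, had none.

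The chromosomes rich in low bins were low as wholes. The median ratio of all bins was 0.853 on chromosome 19, 0.864 on chromosome 16, 0.868 on chromosome 10, 0.873 on chromosome 14 and 0.875 on chromosome 1. These 5 chromosomes had 129 low bins, 54.4% of all. At the other end, chromosome 7 had a median of 1.06, chromosome 4 one of 1.02 and chromosome 11 one of 1.02. Chromosome 11 nonetheless held 9 low bins, 6 of them in a single run. When each bin was divided by the median of its own chromosome, 53.2% of the low bins were chosen again. Chromosome 11 then had most low bins, 31, followed by chromosome 7 with 28, and chromosome 16 had 5. How many copies of each chromosome the cell lines carry was not tested.

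**Figure D2:**
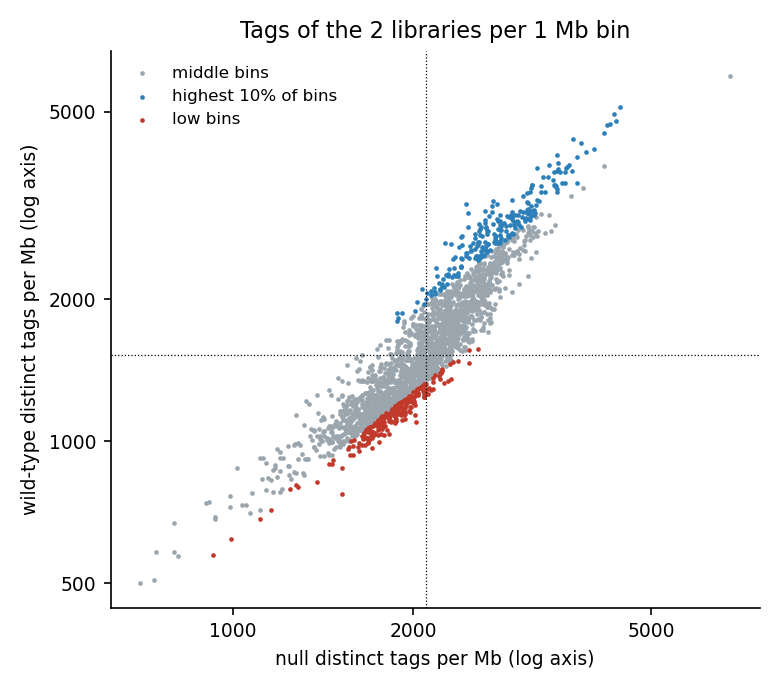
Distinct wild-type tags against distinct null tags in each of 2368 bins of 1 Mb, both on log axes; dotted lines are the medians over all bins. The low bins (red) lie under the wild-type median with 2 exceptions, and most also lie under the null median.

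Low bins were poor in tags of both libraries. The wild-type library had a median of 1142 distinct tags per low bin, 0.750 times its median of 1523 over all bins. In the null library the medians were 1863 and 2100, a quotient of 0.887. In all, 235 of 237 low bins (99.2%) lay under the wild-type median and 212 (89.5%) under the null median. Together they took 6.60% of the distinct wild-type tags and 8.37% of the distinct null tags. The bins of the highest 10% were rich in both, with medians of 2821 wild-type and 2763 null tags. Across the 2368 bins, the Spearman correlation of the ratio was 0.808 with the wild-type count and 0.579 with the null count. The points share both libraries, and the wild-type count is the numerator of the ratio. Both counts enter the ratio, so these values only describe how the ratio went with the tag count of a region. The part of mappability or base composition in this was not tested.

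Repeats of a position were slightly rarer in the wild-type library and slightly more frequent in the null library of low bins than elsewhere. The median share of tags that repeat a position was 30.6% in the wild-type and 34.9% in the null library in low bins, beside 32.4% and 34.0% over all bins. With all tags kept, the median ratio of the low bins was 0.758, with a range from 0.592 to 0.888. The order of the bins was nearly kept, with a Spearman correlation of 0.980 between both countings. Tags of the 2 strands are counted apart, so that bins chosen on 1 strand can be read on the other in the same libraries. Whatever differs between the libraries or cell lines in a region enters both strands, so this is no separate check of the ratio. The 237 bins of lowest ratio on plus-strand tags had a median of 0.824 on minus-strand tags, beside 0.946 over all bins. Of these, 233 lay under that median. In the opposite direction the values were 0.815 and 0.949, with 234 bins under the median. On the strand used for the choice the medians were 0.7811 for plus and 0.7835 for minus, so the ratio was nearer to that of all bins on the other strand. Only 101 bins, 42.6%, were in the lowest 10% on both strands.

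Of 2342 windows of 100 kb inside low bins with 50 or more tags in each library, 2286 (97.6%) had a ratio under 1 and 2048 (87.5%) had 0.9 or less. Over all windows of eligible bins, 39.7% had 0.9 or less, and outside the low bins 34.4%. This contrast repeats the one that chose the bins. The middle 90% of the windows in low bins ran from 0.641 to 0.958, around a median of 0.788. In 97.9% of the low bins at least 8 windows were under 1, and in 187 bins every window counted was. Leaving out the lowest window raises any bin, and 138 of 237 low bins (58.2%) then stayed at or under the threshold, with a median of 0.809.

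The 5 bins of lowest ratio lay on 5 chromosomes. The lowest, chr17:40000001-41000000, had 773 wild-type and 1524 null tags, a ratio of 0.650 (0.596 to 0.710). Its 10 windows of 100 kb ran from 0.492 to 0.750. In the gene order of GRCm38.p6 it lies between Olfr131 and Slc25a27. That stretch spans 5.44 Mb, 60.8% of it in low bins, and which of its genes lie in this bin was not determined. Its 44 protein-coding genes include olfactory receptors and Esp genes for exocrine-gland secreted peptides that act as pheromones. Also among them are Crisp genes for secreted proteins of the male reproductive tract, and Rhag for a membrane protein of red cells. Genes of other kinds, such as Cenpq, Mmut and Cd2ap, lie in the stretch too. The next, chr19:51000001-52000000, had 1097 and 2024 tags, a ratio of 0.695 (0.645 to 0.748). It lies between Sorcs3, a neuronal sorting receptor, and Gpam, an enzyme of glycerolipid synthesis, in 6.89 Mb with 14 genes. The bin chr10:97000001-98000000 had 1139 and 2016 tags, a ratio of 0.724 (0.673 to 0.780), in a stretch of 20.6 Mb between Socs2 and Ptprr that has no supplied promoter but 82 protein-coding genes, with 38.9% of its length in low bins.

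The bin chr16:61000001-62000000 had 970 and 1708 tags, a ratio of 0.728 (0.672 to 0.788). It lies between Epha6, an ephrin receptor, and Nsun3, an RNA methyltransferase, with no protein-coding gene in the 2.18 Mb between them. The bin chr1:114000001-115000000 had 999 and 1758 tags, a ratio of 0.729 (0.674 to 0.788). It lies between Bcl2, an inhibitor of apoptosis, and Clasp1, in 11.7 Mb that hold a cluster of Serpinb protease inhibitors, the cadherins Cdh7 and Cdh19, and Cntnap5a, with 34.3% of its length in low bins. None of these 5 bins held a supplied promoter, and each held between 1 and 5 listed peaks.

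Low bins were clustered along the chromosome. A low neighbour was found for 131 of 237 low bins, 55.3% (48.7 to 61.7). This interval treats the bins as independent, although bins of 1 run share the trait, so it is too narrow to be read as a range. Of the 469 eligible bins next to a low bin, counted once for each side, 160 (34.1%) were low, beside 10.0% of all bins. The low bins formed 157 runs. Of these 106 were single bins, 34 had 2 bins, 10 had 3, 4 had 4, 1 had 5 and 2 had 6. The 276 distinct neighbours that were not low had a median ratio of 0.865. In 87.7% of cases they lay at or under the median of all bins, and none was in the highest 10%. Over all bins the Spearman correlation between a bin and its neighbour was 0.720 over 2329 pairs. It was 0.558 at 2 Mb, 0.338 at 5 Mb, 0.239 at 10 Mb and 0.224 at 20 Mb. Pairs share the libraries and the chromosome, and chromosome-wide differences enter these values at every distance.

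**Figure D3:**
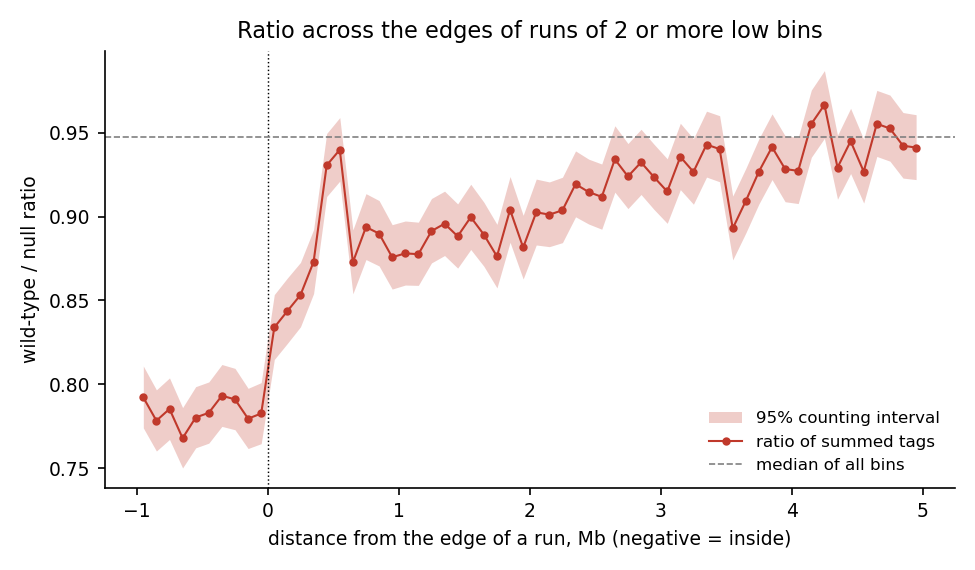
Wild-type over null ratio of tags summed in 100 kb steps across the edges of the 51 runs of 2 or more low bins, against the distance from the edge in Mb; the band is the 95% counting interval and the dashed line the median of all bins. The ratio is higher outside the runs, with a local high at 0.45 to 0.55 Mb, falls back to 0.873 at 0.65 Mb and in most steps stays under the median up to 5 Mb.

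The surroundings of the 51 runs of 2 or more bins were low as well. In the outermost Mb inside these runs the ratio of summed tags was 0.783 (0.778 to 0.789). It was 0.883 (0.877 to 0.889) in the first Mb outside, 0.888 in the second, 0.917 in the third, 0.926 in the fourth and 0.944 (0.938 to 0.9503) in the fifth. The step at the edge is set by the choice of bins, and other low bins can lie within 5 Mb. In steps of 100 kb the rise was uneven. The ratio reached 0.931 (0.912 to 0.9496) at 0.45 Mb and 0.940 (0.921 to 0.959) at 0.55 Mb from the edge. Both of these intervals hold the all-bin median of single-bin ratios, 0.948. Neither holds the ratio of tags summed over all bins, 1.002, which is the like value. At 0.65 Mb the ratio was back at 0.873. The summed tags of both libraries also jumped at 0.45 and 0.55 Mb. Wild-type tags numbered 16293 and 16440 there, beside 13505 at 0.35 Mb and 13591 at 0.65 Mb. Null tags numbered 22450 and 22428, beside 19837 and 19967. Whether a few windows rich in tags give this local high was not tested.

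The longest runs had 6 bins. The run chr1:146000001-152000000 had 6243 wild-type and 10212 null tags, a ratio of 0.784 (0.760 to 0.809), with single bins from 0.758 to 0.810. It held 10 listed peaks and no supplied promoter. Rgs1, a regulator of G-protein signalling in lymphocytes, lies at its left end and has a listed promoter peak. Between Rgs1 and Ivns1abp the gene order gives 11 protein-coding genes in 7.1 Mb. Among them are Rgs18 and Rgs21 of the same family, Brinp3 of neurons, the prostaglandin enzymes Pla2g4a and Ptgs2, the nuclear pore protein Tpr, and the matrix proteins Prg4 and Hmcn1.

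The run chr11:37000001-43000000 had 7170 and 11575 tags, a ratio of 0.794 (0.771 to 0.818), with 11 listed peaks. Its only supplied promoter is that of Gabrb2. The 10 genes between AI595406 and Gabrb2 include the adhesion gene Tenm2, Hmmr, a receptor for hyaluronan, and Ccng1, a cyclin gene. The run chr16:63000001-68000000 had 5330 and 8575 tags, a ratio of 0.797 (0.770 to 0.825), with 15 listed peaks and no supplied promoter. It lies between Arl13b and Gbe1, a stretch of 7.41 Mb whose 14 genes include the ephrin receptor Epha3, the serotonin receptor gene Htr1f, the pituitary regulator Pou1f1, the anticoagulant Pros1 and the cell adhesion gene Cadm2. The genes named in these stretches are examples and no gene group was counted in them.

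Gene order gave the gene content of part of the low bins. The supplied genes were matched by symbol to the RefSeq genes of GRCm38.p6, and 2474 of 2507 could be placed in 1 common order, which gives the genes between each pair. At least 50% of the mm8 distance lay in low bins for 56 such stretches. They span 140.1 Mb, of which 95.5 Mb are low bins, so most of the 237 low bins are not covered. They hold 478 protein-coding genes, 3.41 per Mb, beside 17287 genes and 7.77 per Mb in the 2399 other stretches. Those other stretches, called elsewhere below, have less than 50% of their length in low bins and are not free of low bins. Stretches in low bins are longer, with medians of 1.66 and 0.323 Mb, because supplied promoters are sparse there. Olfactory receptor (Olfr) genes made up 59 of the 478 genes (12.3%, beside 5.79% elsewhere). Pheromone receptor (Vmn) genes made up 18 (3.77%, beside 1.87%), zinc finger (Zfp) genes 21 (4.39%, beside 1.76%) and predicted Gm genes 29 (6.07%, beside 4.84%). No keratin (Krt), Cyp, Serpin or Defb gene was among the 478, beside 0.266%, 0.538%, 0.353% and 0.237% elsewhere. The Serpinb cluster between Bcl2 and Clasp1 counts as elsewhere, although 34.3% of that stretch lies in low bins. Per Mb, Olfr genes numbered 0.421 in these stretches and 0.45 elsewhere, and Vmn genes 0.129 and 0.146. For both receptor families the higher shares thus come with fewer other genes and not with denser receptor genes. Gm genes numbered 0.207 and 0.376 per Mb. Zfp genes went the other way, with 0.150 per Mb in these stretches and 0.137 elsewhere. Each family sits in a few clusters, so these counts rest on few places.

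All Olfr genes of these stretches lay on chromosomes 17 and 19. Between Olfr95 and Olfr131 the order gives 34 genes, nearly all olfactory receptors, with H2-M2 and H2-M3 of the major histocompatibility complex among them. The Zfp genes lay mainly on chromosome 17, where 9 genes between Zfp53 and 4930432O21Rik included Zfp52, Zfp760 and Zfp820, and the stretch up to Cldn6 mixed Zfp and Vmn2r genes. Other stretches were nearly empty. Between Pcdh8 and Diap3 only Olfm4 and Pcdh17 lay in 7.47 Mb. Between Gbe1 and Rbm11 the axon guidance receptors Robo1 and Robo2 and the lipase gene Lipi lay in 5.28 Mb. The stretches named in this way were picked after their content was seen.

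**Figure D4:**
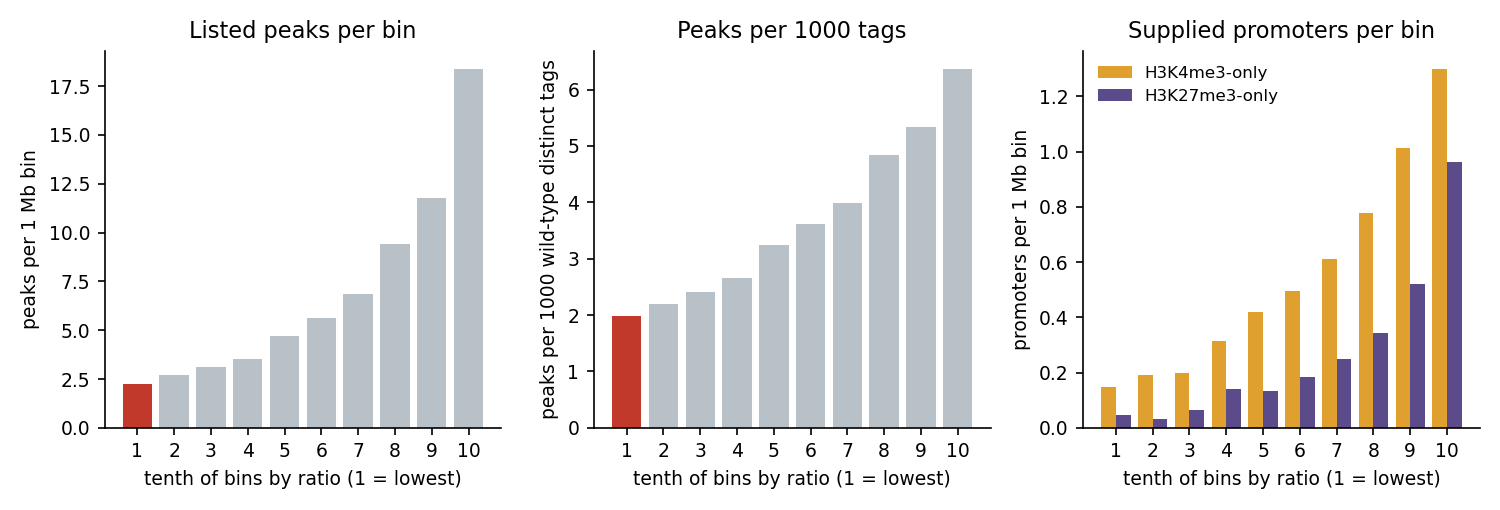
Listed peaks per 1 Mb bin, listed peaks per 1000 distinct wild-type tags, and supplied promoters per bin by class, in 10 groups of bins ordered by wild-type over null ratio (group 1, the low bins, in red in the peak panels). Peak density rises at each step from 2.26 per low bin to 18.4 in the highest group, and both classes of promoters are far denser in the highest group than in the low bins.

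Listed peaks were sparse in low bins. The peak list holds regions where the authors' caller found wild-type tags enriched over the null library, so it comes from the same contrast as the ratio and is described only. Low bins held 535 of the 16183 peaks in eligible bins, 2.26 per bin, beside 5.96 in middle bins and 18.4 in the highest 10%. The median low bin had 2 peaks. There were 27 low bins without a peak, 59 with 1, 61 with 2, 39 with 3 and 32 with 4, and the most was 8. Bins without a peak made up 11.4% of the low bins and 3.28% of the other bins. Per 1000 distinct wild-type tags the densities were 1.98 in low bins, 3.75 in middle bins and 6.37 in the highest 10%. Since peaks and bins use the same contrast, a lower density per wild-type tag is in part built in.

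The peaks of low bins were also smaller. They had a median width of 527 bp and 12 deposited wild-type tags, beside 761 bp and 14 tags in other bins. These tags came from a median of 4 distinct positions and strands in low bins and 7 in other bins. At least 9 distinct positions were found in 54 of 535 peaks in low bins, 10.1% (7.67 to 13.0), beside 33.5% (32.8 to 34.2) in other bins. A deposited p-value of 1e-07 or less was about as frequent, at 42.4% and 43.8%. Of the peaks in low bins 11 were at a listed gene promoter, 2.06% (1.03 to 3.65), beside 4.15% (3.84 to 4.47) in other bins. Since the bins were chosen for scarce distinct wild-type tags, fewer distinct positions per peak are in part set by the choice.

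The peaks with most distinct wild-type positions lay mainly far from supplied genes. Supplied genes are sparse in low bins and were held in part, and the distances of other peaks were not compared. The first, chr17:22582248-22583051, had 23 distinct wild-type and 3 distinct null positions, from 74 and 5 tags. The peak chr9:92978697-92980317 had 21 and 5, and chr14:115267223-115267677 had 20 and 2. The peak chr5:58007571-58009273 had 19 and 7, and its midpoint lay 2.17 kb from the start site of Pcdh7, a protocadherin gene of the same bin. Most tags of all, 271, were listed at chr19:22173127-22174049, 32.6 kb from the start site of Trpm3, but they came from 14 positions, with 1 null position. These peaks were picked after their values were seen.

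Of 660 pairs of a gene and a promoter peak in eligible bins, 11 (1.67%) lay in low bins. Ube2e3, an E2 ubiquitin-conjugating enzyme, had the peak chr2:78669287-78670256 with 11 distinct wild-type and 3 null positions. Fibin had chr2:110163174-110164082 with 11 and 4. Vcan had chr13:90214656-90215871 with 10 and 1, D19Bwg1357e had 9 and 2, and C130060K24Rik had 7 and 1. Lpxn, which encodes the adaptor leupaxin, had 7 and 1 over 1646 bp. Scn9a, a sodium channel gene of sensory neurons, had 5 and 1, and Rgs1 had 4 and 3. The last 3 were olfactory receptor genes. Olfr1433 had 4 and 0, Olfr131 had 2 and 1, and Olfr1431 had 2 and 0, from 11, 9 and 11 deposited tags. Olfr genes made up 3 of the 11 pairs in low bins and 19 of all 660. Olfr1431 and Olfr1433 lie in the same bin, chr19:12000001-13000000, so this count rests on few places. With so few distinct positions the scaled ratio has a wide interval, from 1.24 to 26.2 at Ube2e3 and from 0.289 to 11.7 at Rgs1. The 2 kb around the start site did not always repeat the listed peak. It held 3 wild-type and 7 null tags at Vcan, 1 and 4 at Rgs1, 0 and 6 at Olfr1431, and 4 and 5 at Lpxn.

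Supplied promoters were sparse in low bins too. The list used holds 1927 CpG-rich promoters in eligible bins from the authors' gene table, which was held here in part. Of these 634 were classed as H3K27me3-only and 1293 as H3K4me3-only. The list covers a much larger part of the paper's H3K27me3-only genes than of its H3K4me3-only genes. Bivalent promoters and those with neither mark are not in it. Numbers by class therefore do not give the full promoter make-up of a bin. Low bins held 46 of the 1927 promoters, 2.39%, on 10.0% of the bins, namely 11 H3K27me3-only and 35 H3K4me3-only promoters. This is 0.194 per bin, beside 0.710 in middle bins and 2.26 in the highest 10%. H3K27me3-only promoters numbered 0.0464 per low bin and 0.962 per bin of the highest 10%, and H3K4me3-only promoters 0.148 and 1.30. The low bins did not stand apart from the bins next above them in ratio. Those of ranks above 10% and up to 20% had 0.0338 H3K27me3-only and 0.190 H3K4me3-only promoters per bin. The density in low bins was 0.220 times that in other bins, and this moved to 0.148 in the lowest 5% and to 0.142 with tags of no mismatch only, a setting added after the data were seen. In 196 low bins (82.7%) there was no supplied promoter, beside 52.7% of the other bins. Gene positions do not use the tags, and across bins the Spearman correlation of the ratio with the number of supplied promoters was 0.485 over 2368 bins.

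Genes were also grouped by symbol alone, which leaves out genes of like function under other symbols, such as the channel gene Trpm3 or the adhesion gene Ncam2. It also takes in genes of another function, such as Fgf14, whose product is an intracellular partner of sodium channels. By symbol, developmental regulators and signals (Hox, Sox, Fox, Wnt, Fgf and related symbols) had 1 of 64 supplied promoters in low bins, Fgf14. Symbols of transporters and channels (Slc, Kcn, Gabr, Gri, Cacn, Scn) had 3 of 100, namely Slco4c1, Kcnh7 and Gabrb2. Symbols of adhesion genes (Pcdh, Cdh, Cntn) had 1 of 8, Pcdh7, and zinc finger genes had 2 of 52, Zfp804a and Zfp53. The shares were 1.56%, 3%, 12.5% and 3.85% in this order, beside 2.39% over all supplied promoters. They rest on 1 to 3 promoters each, and nothing particular to a group can be read from them.

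Around their start sites these promoters in sum did not share the low ratio of their bins. Within 1 kb of the start site, the 46 promoters in low bins had 328 wild-type and 333 null tags, a ratio of 1.26 (1.08 to 1.48). At 3 to 5 kb on both sides they had 218 and 426 tags, a ratio of 0.656 (0.555 to 0.774). In other bins the ratio was 1.34 (1.31 to 1.37) at the start site and 1.13 (1.11 to 1.16) in the flanks. The flanks are part of the bins chosen for scarce wild-type tags, so a larger wild-type rise over them is in part set by the choice. Per base, the wild-type tags were 3.01 times as dense at the start site as in the flanks in low bins and 1.88 times in other bins. In the null library the values were 1.56 and 1.59. The wild-type density rose over the flanks at 44 of 46 promoters in low bins (95.7%) and the null density at 32 (69.6%). In other bins these shares were 81.7% and 74.5%. Within 1 kb there were 9.14 scaled wild-type and 7.24 null tags per promoter in low bins, beside 11.5 and 8.54 in other bins, so promoters in low bins had fewer tags in both libraries.

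**Figure D5:**
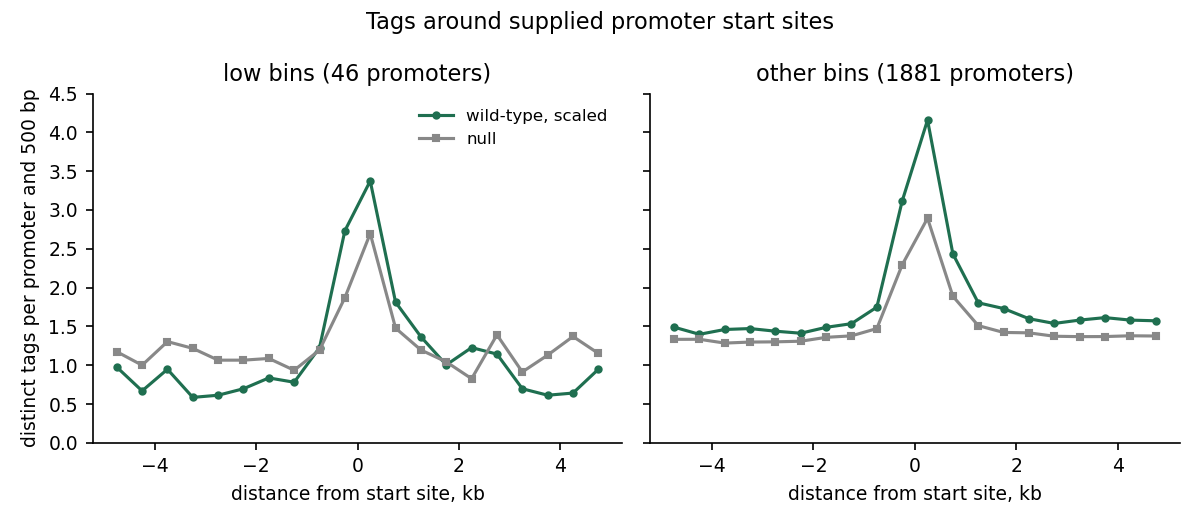
Distinct tags per promoter in 500 bp steps from the start site, wild-type (scaled to the null total, green) and null (grey), for the 46 supplied promoters in low bins and the 1881 in other bins. In low bins wild-type tags exceed null tags around the start site and fall under them in most steps of the flanks, whereas in other bins they exceed them at every step.

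By distance, in low bins the ratio was 1.46 in the 500 bp before the start site and 1.25 in the 500 bp after it. It was 0.835 in the step centred 1.25 kb before the start site, 0.481 in that centred 3.25 kb before it and 0.468 in that centred 4.25 kb after it. Further steps did not fall evenly. The ratio was 1.14 in the step centred 1.25 kb after the start site, and the highest of all steps, 1.48 from 44 wild-type and 38 null tags, was centred 2.25 kb after it. Steps in low bins hold few tags, between 21 and 121 of the wild-type library. In other bins the ratio stayed between 1.05 and 1.44 over the same distances.

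By class, wild-type density was higher at the start site than in the flanks at 11 of 11 H3K27me3-only promoters (3.27 times in sum) and at 33 of 35 H3K4me3-only promoters (2.94 times), with the same limit that the flanks belong to the chosen bins. H3K27me3-only promoters in low bins had 72 wild-type and 64 null tags within 1 kb, a ratio of 1.44 (1.02 to 2.05), and 0.882 (0.587 to 1.31) in the flanks. The 623 in other bins had 1.44 (1.39 to 1.5). H3K4me3-only promoters in low bins had 256 and 269 tags, a ratio of 1.22 (1.02 to 1.45), and 0.616 (0.511 to 0.741) in the flanks. The 1258 in other bins had 1.29 (1.26 to 1.33). A ratio of 1.5 or more within 1 kb was found at 19 of 46 promoters in low bins (41.3%), and at 40.6% of all 1927. The share in low bins was thus near that of the whole list.

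Among the H3K27me3-only promoters, that of Xkr4, a gene of the XK family of membrane proteins, had 13 wild-type and 11 null tags. Trpm3 had 14 and 9, the highest wild-type count of the 11. Fgf14 had 6 and 8, and Boll, an RNA-binding protein of germ cells, had 5 and 7. C130060K24Rik had 8 and 4, Zfp804a had 5 and 6, and Epha6 had 6 and 4. Dpp10, an accessory subunit of neuronal potassium channels, had 2 and 6, and Slco4c1, an organic anion transporter gene tied with it in total, had 4 and 4. The scaled ratio was 1.99 (0.804 to 5.22) at Trpm3, 1.52 (0.626 to 3.74) at Xkr4 and 0.427 (0.0422 to 2.39) at Dpp10.

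Among the H3K4me3-only promoters, Hdac2 had most tags, 14 wild-type and 15 null, a ratio of 1.20 (0.535 to 2.66). Wrnip1, a partner of the Werner helicase, had 10 and 17, and Mars2, the mitochondrial methionyl-tRNA synthetase, had 11 and 12. Stxbp5, a regulator of vesicle release, had 14 and 8, and Plcb1, a phospholipase C of G-protein signalling, had 8 and 13. Pcdh7 had 13 and 7, and Tpd52l1, tied with it in total, had 9 and 11. Gabrb2, in the run of 6 bins on chromosome 11, had 9 and 5, a ratio of 2.31 (0.695 to 8.77) inside a bin at 0.815.

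No single promoter in low bins could be told from 1 at this depth, since all 46 intervals of the ratio included it. In other bins 150 of 1881 intervals (7.97%) lay above 1 and 9 below. Wild-type scaled tags exceeded null tags at 33 of the 46 promoters in low bins (71.7%), beside 69.0% in other bins. The promoter pattern in low bins is thus one of the summed promoters, and single genes show it with too few tags to be read alone.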

How the data were processed

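For 1 uH2A ChIP-Seq library per genotype, the Solexa Analysis Pipeline had been used to place 25 bp tags on mm8, and tags without a unique place were discarded. The authors deposited each tag's position and strand without normalization, and 1 peak list made with a modified TIROE caller with wild-type tags as input and null tags as background. The list gives for each peak a count of wild-type tags and a p-value, both deposited by the authors; its fold column was not used.

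Bins, runs, windows and promoters were counted here in Python 3.11.15 with numpy 2.4.6, pandas 2.3.3 and scipy 1.17.1, after counting and intervals had been tested on simulated data. A peak was placed by its midpoint. Promoter positions and classes came from the study's gene tables. Members and lists were chosen with earlier results of these data known. Genes named were those with a promoter peak in a low bin, the 8 H3K27me3-only and 6 H3K4me3-only promoters with most tags, ties included, those in the 3 longest runs, and neighbours of the bins described. App, Ncam2, the members of symbol groups and the choice of printed sequences fall outside this rule and were picked after their values were seen. Whether the targeted gene itself lost tags was not checked here. Some genes of the stretches described are not reported here.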

Additional observations from a re-analysis of the deposited data

How the results depend on the processing

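Which bins are low depends on the settings, and so do some of the values that describe them. Of the low bins' length, 78.5% was chosen again with all tags kept, 88.6% with at least 1000 tags per bin, 56.8% with bins starting 500 kb later, 66% with bins of 500 kb, 68.8% on the plus strand, 72.2% on the minus strand, 53.2% after division by the chromosome median and 68.4% with tags of no mismatch only, a setting added after the data were seen. Shifting tags by 116 bp changed none of the 237 bins. The share of low bins with a low neighbour, 55.3%, was 43% on the minus strand and 42% in the lowest 5%, and 51.5% to 57.6% under the other 8 settings. The peak density of low relative to other bins, 0.307, was 0.269 with all tags kept and 0.290 to 0.335 under the other 9. The promoter density, 0.220, was 0.157 with shifted bins, 0.148 in the lowest 5% and 0.142 with tags of no mismatch, and 0.166 to 0.220 under the other 5. The ratio at promoters of low bins, 1.26, ran from 1.14 to 1.40 over 5 settings. No direction was reversed. The cause of these shifts was not tested. With 1 library per genotype no value has a replicate check, and a ratio at a single promoter or peak rests on few distinct tags.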
